A study of Mus musculus with 37 samples.

Results

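The comparison set the unobstructed kidneys of Twist-line mice against the kidneys of mice that had no obstruction. Its members were the 3 arrays labelled ggt-cre-;Twist flox/flox and contralateral, from mice 1 to 3, and the 3 arrays labelled ggt-cre-;WT and healthy, from mice 17 to 19. These are 6 of the 37 arrays of the study, which used Illumina bead arrays on whole mouse kidney RNA. The arrays were selected by their genotype and kidney labels, and the comparison itself was picked with earlier results of these data known. Here the first group is called Twist-line contralateral kidneys and the second wild-type kidneys.

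Mice 1 to 3 carried floxed copies of Twist1 but no cre recombinase, so the floxed gene was left in place, and the labels call the genotype wild-type like. One ureter of each mouse had been tied (unilateral ureteral obstruction, UUO), and the arrays used here are from the other kidney. The wild-type mice also lacked cre, and their kidneys are labelled healthy. All 6 mice were 10 weeks old and were labelled as a mix of C57Bl/6 and sv129. The groups therefore differ in the floxed allele and its line as well as in the surgery, and no healthy kidney of a Twist-line mouse without cre was available to separate them. Other arrays serve as side-by-side values. Contralateral kidneys with Twist1 deleted in the proximal tubule (ggt-cre+;Twist flox/flox, mice 4, 6 and 7) were set against healthy wild-type kidneys with cre (ggt-cre+;WT, mice 14 to 16). Contralateral kidneys of the Snail line (ggt-cre-;Snail flox/flox, mice 8 to 10, C57Bl/6 and Balb/c) came from the same surgery in another strain mix. Healthy Twist1-deleted kidneys (mice 20 to 22) were taken at 26 weeks. The ggt promoter directs cre to proximal tubule cells, so deletion elsewhere in the kidney is not part of the model.

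When one kidney stops filtering, the open kidney takes over its work and enlarges, mainly by growth of tubule cells. In rodents this compensatory growth is known to involve insulin-like growth factor signalling, the mTOR kinase, which drives protein synthesis, and the making of ribosomes, with some cell division. The open kidney also carries a larger load of salt and water, which is finely adjusted in the collecting duct through the epithelial sodium channel ENaC. Heat shock proteins are chaperones that refold damaged proteins, and their genes are switched on within minutes by heat, oxidative and other protein-damaging stress.

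A gene was called when its adjusted p was under 0.05 in limma's moderated two-sided test, fitted over all 37 arrays as 12 group means and adjusted by Benjamini-Hochberg over 12866 genes. Levels are normalized log2 intensities of 1 probe per gene, so 1 unit is a 2-fold step, and they compare a gene between arrays but not 1 gene with another. Kidney markers were present on all 6 arrays: the thick limb protein uromodulin (Umod) was at 14.42 to 14.54 in Twist-line contralateral kidneys and at 13.87 to 14.22 in wild-type kidneys, and the proximal phosphate transporter Slc34a1 was at 14.6 to 14.81 and at 14.68 to 14.78. Pax8, a transcription factor of kidney epithelium, was at 6.2, 6.21 and 6.52 against 7.5, 7.03 and 7.29, which is a difference of -0.97 (limma adjusted p = 0.00827). Xist was high on 1 array of each group, so the sexes that it marks were balanced. Groups used as side-by-side values were less even. Xist was at 8.39 to 8.69 in all of mice 20 to 22 and at 4.33 to 4.51 in all of mice 14 to 16. In mice 4, 6 and 7 it was at 4.65, 4.52 and 7.31. The tissue is bulk kidney, so fewer cells of a type and less RNA per cell cannot be told apart in any value below.

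The arrays of the groups also stood apart in their background. The 25th percentile of the raw signal, which mostly reflects probes with no transcript, was 95.9, 88.3 and 90.1 intensity units in Twist-line contralateral kidneys, against 111.2, 107.6 and 112.5 in wild-type kidneys. The ranges did not overlap, and the group and this floor cannot be told apart in the 6 arrays. Among the Twist1-deleted contralateral kidneys, mice 4 and 6 had low floors of 86.3 and 89.7, and mouse 7 had 102.8. Snail-line contralateral kidneys, with the same surgery, had 104.2 to 110.1, and wild-type kidneys with cre had 107.6 to 110.3. Obstructed kidneys without cre had low floors in both lines, at 91.4 to 96 in the Twist line and 93.2 to 97.7 in the Snail line. Obstructed Twist1-deleted kidneys had 91.1 to 110.3, with mouse 7 the highest. Obstructed Snail-deleted kidneys (ggt-cre+;Snail flox/flox) had 93.5 to 109.7, with mouse 13 the highest. Between 39 and 40.8% of probes were detected in Twist-line contralateral kidneys and between 37.8 and 40.1% in wild-type kidneys. Over all genes, pairs of arrays correlated at 0.973 to 0.984 within Twist-line contralateral kidneys, at 0.977 to 0.989 within wild-type kidneys and at 0.954 to 0.97 between them.

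**Figure D1:**
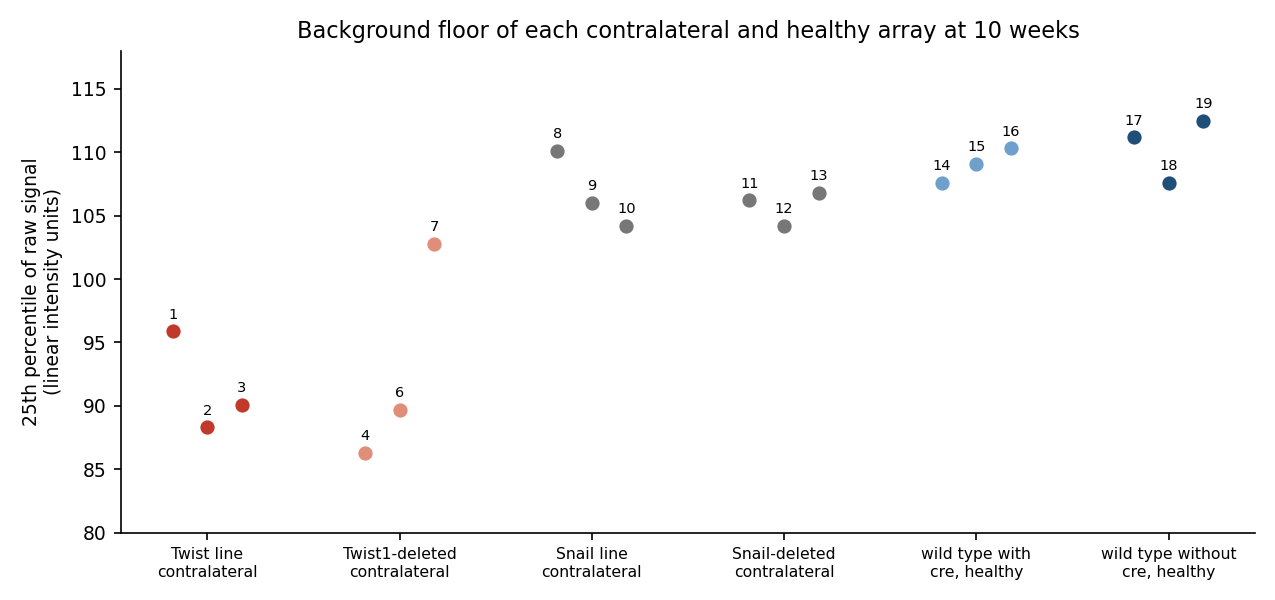
Each point is 1 array of a contralateral or healthy kidney at 10 weeks, numbered by mouse, and the y axis is the 25th percentile of its raw signal in linear intensity units (the axis starts at 80). The 5 arrays of mice 1 to 4 and 6 lie between 86.3 and 95.9. Mouse 7 and all Snail-line and wild-type arrays drawn lie at 102.8 or above.

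An MHC gene spoke against the shared strain label. C57Bl/6 and 129 strains are known to carry an MHC haplotype in which H2-Ea, the alpha chain of the class II molecule I-E, is not transcribed, whereas Balb/c transcribes it. H2-Ea stood at 4.42, 4.47 and 4.47 in Twist-line contralateral kidneys, against 9.91, 10.73 and 10.28 in wild-type kidneys that carry the same label. It was detected on 0 of 3 and on 3 of 3 arrays, and the level was at least 39.1-fold lower in Twist-line contralateral kidneys. Mice 4 and 6 had 4.41 and 4.81, while mouse 7 had 11.24, wild-type kidneys with cre had 9.68 to 10.48, and the healthy Twist1-deleted kidneys of 26 weeks had 10.6 to 10.97. The Snail line, where Balb/c alleles are part of the labelled mix, had 10.05 to 11.13. H2-Ea was thus on in all 6 wild-type mice, so no comparison with wild-type mice that lack it was possible. What share of the differences below goes with strain, with array batch, with the floxed line or with the obstruction of the other kidney cannot be told apart within these 6 arrays.

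In Twist-line contralateral kidneys 2281 of 12866 genes differed from wild-type kidneys, or 17.7%. Of these, 1104 were higher (8.58%) and 1177 were lower (9.15%), and 538 passed a 2-fold step, 263 of them higher and 275 lower. The median difference over all genes was 0.001 on the log2 scale and the median size among called genes was 0.75. The 3 arrays of one group lay wholly above or below the 3 of the other in 4737 genes, 36.8% of those tested, and in 2171 of the called ones. Among the 8658 genes detected on all 6 arrays 20.8% were called, against 11.4% of the 4208 others. The authors' series matrix values without quantile normalization, which put the median of all genes at -0.25, called 3505 genes, 12.9% of them higher, where the normalized values had 48.4% higher. Leaving out any 1 of the 6 arrays gave 1406 to 1709 calls, with the fewest without mouse 19 (1406) and mouse 18 (1441), and 54 of 108 called genes that are named kept their call in all 6 of these fits.

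The largest rises among genes detected on all 6 arrays included solute handling, metabolic and signalling genes. Scnn1a, the alpha subunit of ENaC, stood at 10.78, 10.21 and 10.25 in Twist-line contralateral kidneys, against 8.69, 8.29 and 8.13 in wild-type kidneys. Bcat2, the mitochondrial enzyme that starts the breakdown of branched-chain amino acids, stood at 9.76, 9.82 and 9.38 against 8.21, 7.52 and 7.77. Ppargc1a, a coactivator that drives mitochondrial gene expression, stood at 11.22, 10.66 and 10.51 against 9.37, 8.81 and 8.87. All 3 genes were higher in every Twist-line contralateral kidney than in any wild-type kidney, by 2.04 ± 0.27, 1.82 ± 0.22 and 1.78 ± 0.36 on the log2 scale (± SE), with limma adjusted p of 3.11e-05, 9.32e-06 and 0.00169. Tmem63b, a mechanically gated ion channel, rose by 2.35, and Zmiz1, a transcriptional coregulator, rose by 1.86. Prcp, a carboxypeptidase that acts on angiotensin and other peptides, stood at 10.64, 11.04 and 10.74 against 7.39, 10.15 and 7.69. Mouse 18 lay close to the Twist-line values for Prcp, and so did the wild-type kidneys with cre at 9.99 to 10.91.

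The largest falls included heme, creatine and motor protein genes. Hmox1, the stress-induced enzyme that breaks down heme, stood at 4.98, 6.93 and 5.79 in Twist-line contralateral kidneys, against 6.93, 8.7 and 8.58 in wild-type kidneys, a difference of -2.17 (SE 0.50, limma adjusted p = 0.00436). Mouse 2 of the Twist line and wild-type mouse 17 had the same value to 2 decimals, and the other arrays lay apart. Dynll2, a light chain of dynein and myosin V, stood at 5.77, 6.3 and 6.38 against 8.16, 8.1 and 8.36, with every array of one group far below every array of the other. Gatm, the enzyme that makes the precursor of creatine in the proximal tubule, fell by 2.09, and Dnajc7, a co-chaperone of Hsp70 and Hsp90, fell by 1.80. Abhd1 stood at 7.19, 7.05 and 6.95 against 11.58, 10.71 and 10.86, yet wild-type kidneys with cre had 7.25 to 7.35, so those wild-type mice lay with the Twist line. Its call was lost when any 1 of the 6 arrays was left out, at adjusted p up to 0.0746.

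Some genes were detected on every array of one group and on none of the other: 76 of the called genes in Twist-line contralateral kidneys only and 48 in wild-type kidneys only. For these the fold is a bound, taken from the mean of the group that was detected over, per array, the higher of the lowest detected level and the probe's own level in the other group. Pdrg1, a DNA damage regulated prefoldin-like protein, stood at 8.29, 8.68 and 8.39 against 4.48, 4.46 and 4.45, which is at least 10.4-fold higher. Pdrg1 was also on in Snail-line contralateral kidneys, at 9.34 to 9.6, and off in mouse 7, at 4.41. Dctn1, the largest subunit of dynactin, stood at 7.51, 7.7 and 7.44 against 4.42, 4.77 and 4.44 and was at least 5.59-fold higher, followed by the ubiquitin ligase Trim7 (at least 3.21-fold) and the methyl-CpG binding protein Zbtb38 (at least 2.63-fold). On the other side, Dtd2, an editing enzyme that clears mischarged tRNA, stood at 4.35, 4.42 and 4.43 against 6.89, 8.03 and 8.06 and was at least 6.26-fold lower. Chmp1a, an ESCRT-III subunit, was at least 6.07-fold lower. The beta globin Hbb-b2 was at least 9.1-fold lower, and it was also undetected in mouse 15 of the wild-type kidneys with cre and in the Snail line.

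The same question can be put to arrays that the comparison did not use. Twist1-deleted contralateral kidneys differed from wild-type kidneys with cre in 1060 genes (8.24%), of which 610 were higher (4.74%) and 450 were lower (3.5%). In all, 730 genes passed in both comparisons in the same direction, 405 higher and 325 lower, which is 32% of the calls in Twist-line contralateral kidneys and 68.9% of those in Twist1-deleted ones. Of the 2281 genes called in Twist-line contralateral kidneys, 2198 had the same sign in the second comparison (96.4%), against 75.8% of all genes. Across the 12866 genes, which are not independent of each other, the differences correlated at r = 0.715 and rho = 0.703. The comparisons share no mouse, but mice 4 and 6 share the low floor of mice 1 to 3, and without mouse 7 the second comparison had 1644 calls. Leaving out any 1 of its 6 arrays gave 387 to 1644, with the fewest without mouse 16. The 730 shared calls became 270 without mouse 6, 277 without mouse 16, 292 without mouse 15, 334 without mouse 4, 457 without mouse 14 and 1198 without mouse 7. Only Ccng2 differed between the comparisons at adjusted p under 0.05 (0.00777% of genes), as described in the closing section.

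**Figure D2:**
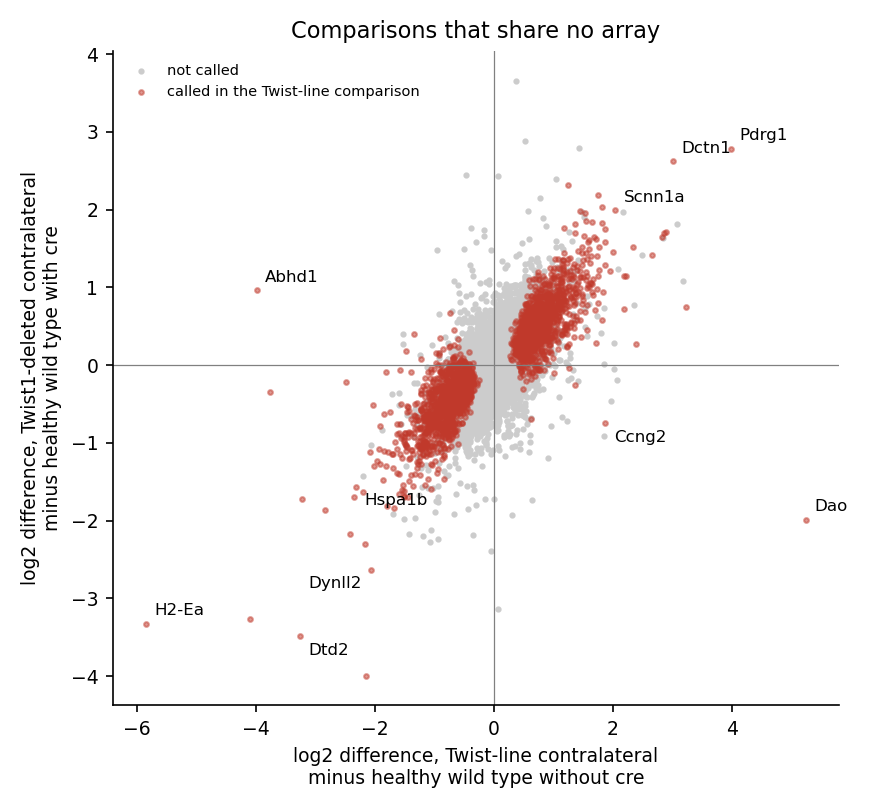
Each point is 1 of 12866 genes, with the log2 difference of Twist-line contralateral minus healthy wild-type kidneys without cre on the x axis and that of Twist1-deleted contralateral minus healthy wild-type kidneys with cre on the y axis. The 2281 called genes, in red, lie mostly in the lower left and upper right, and Abhd1, Dao and Ccng2 lie off that diagonal.

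Genes detected on all 12 arrays and called in both comparisons were led by Dynll2, Hmox1, Scnn1a, Greb1, Atp6v1d, Bcat2, Zmiz1, Dnajc7 and Acat3. Dynll2 fell by 2.06 in Twist-line contralateral kidneys and by 2.63 in Twist1-deleted ones, and mouse 7, at 5.19, was as low as the others. Scnn1a rose by 2.04 and by 1.99, Bcat2 by 1.82 and by 1.83, and Zmiz1 by 1.86 and by 1.75. Acat3, a cytosolic acetyl-CoA acetyltransferase, fell by 1.69 and by 1.84. Greb1, an estrogen-induced gene, rose by 1.76 and by 2.19, and Atp6v1d, a subunit of the vacuolar proton pump, rose by 1.82 and by 2.04. Atp6v1d lost its call without mouse 18 or without mouse 19, at adjusted p up to 0.0626.

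The position of each array on the scale set by these genes was then read off, with 1 for the mean of Twist-line contralateral kidneys and 0 for the mean of wild-type kidneys, as the median over the 2281 called genes. The 6 arrays that chose the genes lie near 1 and 0 by construction, at 1.04, 0.98 and 0.98 and at 0.01, 0 and -0.02. Contralateral kidneys of mice 4 and 6 lay at 0.91 and 0.93, while mouse 7 lay at 0.4. Obstructed kidneys of mice 1 to 3, the diseased side of the same mice, lay at 1.01, 0.94 and 0.99, and those of mice 4 to 6 lay at 0.98, 0.99 and 0.97. In mice 1 to 4 and 6 both kidneys thus lay close to 1, and mouse 7 was low on both sides, with 0.44 in its obstructed kidney. The obstructed kidneys were more mixed gene by gene: 68.1 to 74.4% of the called genes lay nearer the Twist-line mean in those of mice 1 to 3, against 96.1 to 97.2% in their contralateral kidneys, which set that mean. Snail-line contralateral kidneys, open kidneys after the same surgery, lay at 0.02, 0.33 and 0.14 in mice 8 to 10, their obstructed kidneys at 0.3, 0.27 and 0.3, and wild-type kidneys with cre at 0.15, 0.02 and 0.02. Healthy Twist1-deleted kidneys of 26 weeks, with no surgery, lay at 0.33 to 0.35. Healthy kidneys of Snail-deleted mice (ggt-cre+;Snail flox/flox), also of 26 weeks and without surgery, lay nearly as high, at 0.25 to 0.29.

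**Figure D3:**
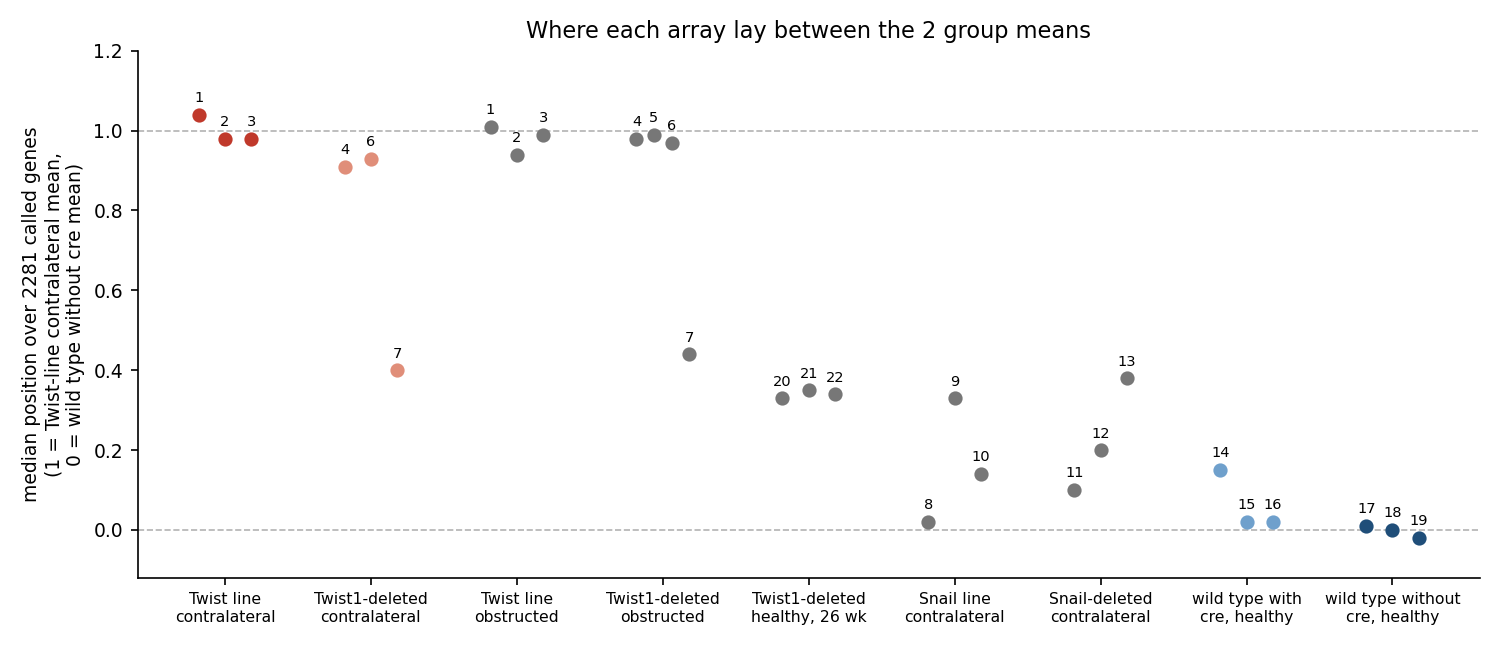
Each point is 1 array, numbered by mouse, and the y axis is its median position over the 2281 called genes between the mean of wild-type kidneys without cre (0) and the mean of Twist-line contralateral kidneys (1). All arrays drawn of mice 1 to 6 (mouse 5 has only an obstructed kidney) lie at 0.91 or above, both arrays of mouse 7 lie at 0.4 and 0.44, and no Snail-line or wild-type array drawn lies above 0.38.

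The obstructed kidneys gave the same pattern with other arrays. Obstructed Twist-line kidneys minus obstructed Snail-line kidneys, which shares no array with the comparison but takes the first group from the same 3 mice, had the same sign in 2060 of the 2281 called genes (90.3%) and in 503 of the 538 past 2-fold (93.5%), against 70.8% of all genes. Of the 76 genes that were on in Twist-line contralateral kidneys only, 48 were detected in all 3 obstructed kidneys of the same mice and 1 was detected in all 3 wild-type kidneys with cre. Of the 48 that were on in wild-type kidneys only, 23 were detected in none of those obstructed kidneys and 31 were detected in all 3 wild-type kidneys with cre. Snail-line contralateral kidneys differed from the same wild-type kidneys in 57 genes (0.443%), and cre alone in 2 genes (0.0155%). Twist-line contralateral kidneys differed from Snail-line contralateral kidneys in 1717 genes (13.3%), 1243 of them among the 2281, but the shared arrays tie these counts together. The identifiers in the labels of mouse 7 begin with the letter S. So do those of Snail-deleted mouse 13 and of wild-type mice 16, 18 and 19. On the position scale above, mouse 13 lay at 0.38 in its contralateral and 0.4 in its obstructed kidney, and mice 16, 18 and 19 lay at 0.02, 0 and -0.02. The part of these identifiers in the values was not tested.

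The calls among chaperone genes of the heat shock and unfolded protein response all ran downward. Of 25 measured list members, 12 were lower, 0 were higher and 13 did not pass in limma's test, 15 had an unadjusted p under 0.05, and the median difference was -0.65, against 0.001 over all genes and 9.15% of all genes called lower. The genes include Hspa1b, an inducible Hsp70, at 4.77, 5.58 and 4.41 in Twist-line contralateral kidneys, against 6.42, 6.32 and 8.99 in wild-type kidneys. Hsp90aa1, the inducible cytosolic Hsp90, stood at 8.16, 8.87 and 8.75 against 9.4, 9.56 and 10.51. Atf4, the transcription factor of the integrated stress response, stood at 10.36, 9.94 and 10.02 against 11.15, 10.7 and 11.66. In each of these genes every Twist-line contralateral kidney lay below every wild-type kidney, and mouse 19 was the highest wild-type mouse. Hsp90aa1 fell by 1.23 (SE 0.26, limma adjusted p = 0.00228) and Atf4 by 1.06 (SE 0.22, 0.00226). Hspa1b passed as well (adjusted p = 0.00387), but it was detected on 1 of 3 Twist-line contralateral and 3 of 3 wild-type arrays, so its fitted difference of -2.32 rests partly on levels below detection and is no fold. Dnajb9, an endoplasmic reticulum chaperone, fell by 0.65.

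Other called members, named after their values were seen, were the small heat shock protein Hspb1, the mitochondrial co-chaperonin Hspe1, the Hsp70 co-chaperones Dnajb1, Dnaja1 and Hsph1, and the endoplasmic reticulum proteins Sdf2l1, Creld2 and Hspa5. Hspb1 stood at 7.23, 7.16 and 6.48 in Twist-line contralateral kidneys, against 8.5, 7.94 and 9.85 in wild-type kidneys, a difference of -1.81 (limma adjusted p = 0.00755). Hspe1 stood at 9.48, 9.6 and 9.83 against 10.29, 10.51 and 10.87, a difference of -0.92 (0.00436). Hspa1a, whose sequence is nearly identical to that of Hspa1b so that probes may not separate them, was at -1.48 and did not pass (0.0581). In Twist1-deleted contralateral kidneys 8 members were lower than in wild-type kidneys with cre and the list's median was -0.57. In this list mouse 7 was with its group: the median of the list in each array, set against the mean of all wild-type kidneys, was -0.67, -0.58 and -0.53 in mice 1 to 3, -0.75, -0.7 and -0.64 in mice 4, 6 and 7, and -0.22 to 0.15 in mice 14 to 16. Snail-line contralateral kidneys had -0.48 to -0.38, and against the shared wild-type kidneys 2 members were called with a median of -0.45. Healthy kidneys of 26 weeks, from mice with no surgery, also lay low, at -0.5 to -0.4 in Twist1-deleted and at -0.66 to -0.29 in Snail-deleted mice (ggt-cre+;Snail flox/flox, mice 23 to 25). Without mouse 19 the count of lower members was 6 in place of 12, and Hspb1 (adjusted p = 0.0758), Sdf2l1, Dnaja1, Hsph1, Creld2 and Hspa5 were then not called. With the series matrix values the count was 20.

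The heat shock factors bind runs of GAA units in alternating orientation, of which a pair of units facing each other is the smallest part. Both forms of such a pair, TTCNNGAA and GAANNTTC, were searched in the promoter windows of the list, 250 bases before to 50 after the start, from RefSeq on GRCm38.p6. Each form is its own reverse complement, so 1 strand covers both, and the forms can overlap in a longer array. Windows of the following 4 called genes are shown because they hold a pair, with the letters of each pair in capitals. Hspe1 lies at chr1:55087898-55088197 on the plus strand, Hspb1 at chr5:135887669-135887968 on the plus strand, Hspa1b at chr17:34959189-34959488 on the minus strand and Hsph1 at chr5:149636266-149636565 on the minus strand, and each is written 5′ to 3′ along its gene.
Hspe1: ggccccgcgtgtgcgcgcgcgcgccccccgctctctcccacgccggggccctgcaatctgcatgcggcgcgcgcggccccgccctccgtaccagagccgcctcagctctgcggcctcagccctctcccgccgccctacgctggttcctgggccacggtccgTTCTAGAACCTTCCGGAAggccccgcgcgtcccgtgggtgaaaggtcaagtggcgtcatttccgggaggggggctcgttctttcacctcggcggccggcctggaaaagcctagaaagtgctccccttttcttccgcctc
Hspb1: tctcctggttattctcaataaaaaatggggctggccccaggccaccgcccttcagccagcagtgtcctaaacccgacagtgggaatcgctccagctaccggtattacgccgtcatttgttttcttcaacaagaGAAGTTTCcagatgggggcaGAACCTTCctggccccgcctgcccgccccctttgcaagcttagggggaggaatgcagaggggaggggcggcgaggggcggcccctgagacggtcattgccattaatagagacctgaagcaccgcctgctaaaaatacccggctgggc
Hspa1b: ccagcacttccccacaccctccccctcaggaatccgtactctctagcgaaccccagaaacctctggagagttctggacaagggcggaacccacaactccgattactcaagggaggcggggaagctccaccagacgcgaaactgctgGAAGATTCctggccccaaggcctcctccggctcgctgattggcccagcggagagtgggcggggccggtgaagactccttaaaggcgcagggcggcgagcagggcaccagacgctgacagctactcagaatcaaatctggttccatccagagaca
Hsph1: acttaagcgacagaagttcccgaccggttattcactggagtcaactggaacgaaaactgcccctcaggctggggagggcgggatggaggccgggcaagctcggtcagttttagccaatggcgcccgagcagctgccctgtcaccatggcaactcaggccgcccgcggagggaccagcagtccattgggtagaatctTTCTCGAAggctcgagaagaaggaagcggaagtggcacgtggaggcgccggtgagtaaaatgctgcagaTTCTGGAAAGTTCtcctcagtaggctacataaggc
In Hspe1 3 overlapping pairs form 1 run that starts 89 bases before the start of the gene. Hspb1 has pairs that begin 117 and 97 bases before its start, Hspa1b has 1 at 104 bases, and Hsph1 has 1 at 54 bases and an overlapping run after its start.

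Among all 32851 promoter windows 15.1% held a pair, and among 10361 tested genes with a window 14.2% did. The share was 9 of 23 in the measured list (39.1%) and 5 of 11 in its called members (45.5%). It was 17.5% of the genes called lower and 12.7% of those called higher. Of the called members with a window, Dnaja1 was the other one that held a pair, and the windows of Atf4, Dnajb9, Dnajb1, Sdf2l1, Creld2 and Hspa5 held none. Such matches describe letters only.

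Sodium channel subunits Scnn1a and Scnn1b of the collecting duct rose, and the gamma subunit Scnn1g did not pass. Of 23 measured collecting duct genes 6 were higher and 0 were lower in limma's test, 9 had an unadjusted p under 0.05, and the median difference was 0.55, with 8.58% of all genes called higher. Beside Scnn1a, the beta subunit Scnn1b stood at 10.92, 9.94 and 10.43 in Twist-line contralateral kidneys, against 9.39, 9.11 and 8.72 in wild-type kidneys, a difference of 1.36 (limma adjusted p = 0.00333). Hsd11b2, the enzyme that shields the mineralocorticoid receptor from glucocorticoids, stood at 10.81, 10.18 and 10.34 against 9.56, 9.31 and 9.19, a difference of 1.09 (0.0124). A second Hsd11b2 probe, detected on all 6 arrays, was at 0.67 and did not pass (limma adjusted p = 0.261). Gata2, a transcription factor of the duct, stood at 9.12, 8.64 and 9.02 against 8.26, 8.24 and 8.07 (0.00655). In all of these every Twist-line contralateral kidney lay above every wild-type kidney. The other called members, named after their values were seen, were Slc4a9, a bicarbonate transporter of intercalated cells, at 1.58 (0.0182), and the ammonia channel Rhcg at 1.15 (0.0263). Scnn1g stood at 11.18, 10.18 and 10.09 against 9.99, 10.01 and 9.52, a difference of 0.64 (0.312). The water channel Aqp2 was at 10.78, 10.92 and 11.32 against 10.02, 8.46 and 9.92 and did not pass (0.134).

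In Twist1-deleted contralateral kidneys 7 collecting duct genes were higher than in wild-type kidneys with cre, with a median of 0.56, and Scnn1b rose there by 1.70. Scnn1a stood at 10.45, 9.96 and 10.18 in mice 4, 6 and 7, against 8.41, 8.1 and 8.1 in wild-type kidneys with cre, and Hsd11b2 at 10.4, 10.32 and 10.93 against 9.31, 9.04 and 9.19. Mouse 7 was the highest of its group in this list, with a median of 1.19, where mice 4 and 6 had 0.47 and 0.49. In Snail-line contralateral kidneys the median was 0.06, with Scnn1a at 0.41 (adjusted p = 0.874). The direct difference of Scnn1a between Twist-line and Snail-line contralateral kidneys was 1.63 (0.00044). Healthy Twist1-deleted kidneys, which had no obstruction but were of 26 weeks, were also higher for Scnn1a than wild-type kidneys with cre, by 1.27 (0.0108), in a comparison that called 436 genes (3.39%). Xist was high in all of these Twist1-deleted mice and low in all wild-type mice with cre, so sex differed as well as age. Without mouse 1 or without mouse 19 the count in Twist-line contralateral kidneys was 3 in place of 6, and Hsd11b2, Slc4a9 and Rhcg were not called (adjusted p up to 0.0696, 0.0986 and 0.139). With the series matrix values the count was also 3.

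**Figure D4:**
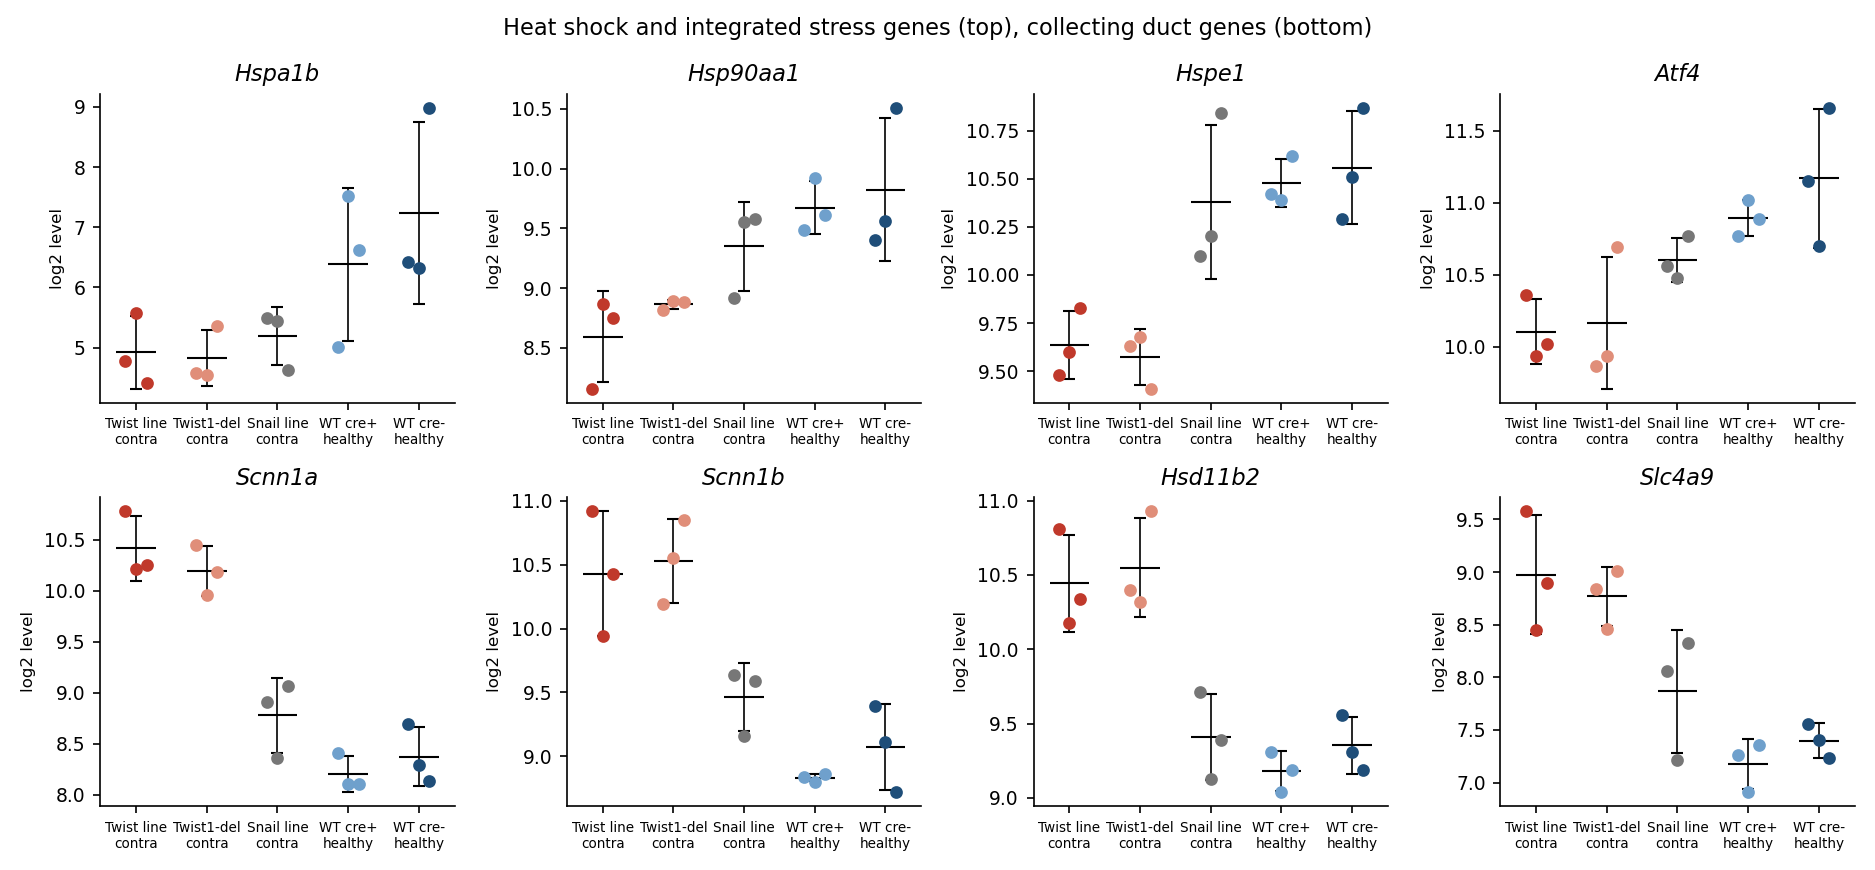
Each panel plots 1 gene as log2 levels in single arrays, with the group mean and SD (n = 3 each) in black, for Twist-line, Twist1-deleted and Snail-line contralateral kidneys and for healthy wild-type kidneys with and without cre. Hspa1b, Hsp90aa1, Hspe1 and Atf4 are lower, and Scnn1a, Scnn1b, Hsd11b2 and Slc4a9 higher, in every Twist-line contralateral array than in any wild-type array without cre.

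Thick limb and distal tubule genes had 4 of 21 measured members higher and 0 lower in limma's test, where 8.58% of all genes were higher, with 11 at an unadjusted p under 0.05 and a median of 0.48. They were Atp1b1, the beta subunit of the sodium pump (0.58), Stk39, the kinase that activates the salt cotransporters (0.84), its upstream kinase Wnk4 (0.86) and the calcium-sensing receptor Casr (1.06). In Twist1-deleted contralateral kidneys 6 members were higher. Without mouse 1 or without mouse 18 the count was 1 and without mouse 19 it was 2, with the series matrix values it was 0, and Atp1b1 kept its call without each of the 6 arrays. Of 28 proximal tubule transporters 1 was higher, Slc4a4, the basolateral bicarbonate exporter, and the median was -0.02. Slc4a4 stood at 13.34, 13.27 and 13.18 against 11.87, 12.2 and 11.37, but a second probe of the gene was at -0.81. Of 22 proximal enzymes and regulators 2 were higher (Anpep and Dao) and 2 were lower (Gatm and Acmsd). Dao, D-amino acid oxidase, stood at 11.88, 11.9 and 12.04 against 4.59, 10.77 and 4.71, with mouse 18, the 1 wild-type array of these that detected it, near the Twist-line values. Its call was lost without mouse 19 (adjusted p = 0.0521). A second Dao probe, detected on all 6 arrays, passed in the opposite direction, at -2.63 (limma adjusted p = 0.000812), so the direction for Dao depends on the probe.

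Growth factor genes passed about as often as genes in general. Of 23 growth factors and receptors, 2 were higher and 2 were lower, near the 8.58% and 9.15% of all genes. Igf1r, the receptor of insulin-like growth factors, stood at 10.43, 10.47 and 10.79 in Twist-line contralateral kidneys, against 9.21, 9.79 and 9.69 in wild-type kidneys, a difference of 1.00 (limma adjusted p = 0.0118) that was lost without mouse 3 or without mouse 17 (adjusted p up to 0.0646). Igfbp3, a binding protein that holds these factors back, stood at 9.65, 8.8 and 9.45 against 10.41, 10.63 and 10.23, a difference of -1.12 (0.00724) that was lost without mouse 2 (0.056). The insulin receptor Insr was at 0.55 and kept its call only without mouse 17, and Igfbp7 was at -0.57 and lost it without mouse 2 (0.0792). The median of the list was 0.12.

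Of 22 genes listed for the mTOR and PI3K pathway, 5 were higher and 2 lower, with a median of 0.11, where 8.58% of all genes were called higher and 9.15% lower. The 5 include Pdk1 (0.87), a pyruvate dehydrogenase kinase rather than the PI3K pathway kinase Pdpk1. Pdk1 is also counted in the glycolysis and hypoxia list, so the count for this pathway is too high. The kinase Mtor itself stood at 9.83, 10.67 and 11.23 against 9.2, 9.37 and 9.46, a difference of 1.23, while a second probe was at 0.01, and without mouse 3 the call was lost (0.0585). Tsc2, the inhibitor of the pathway, rose by 0.77, and the kinase subunit Pik3ca fell by 0.75. The other probes of Tsc2 were at 0.17 and -0.43 and did not pass. Slc3a2, the partner of the leucine transporter, also passed as lower, at 5.54, 4.56 and 4.72 against 6.76, 6.05 and 6.21, and was detected on 1 of 3 and on 3 of 3 arrays. Ribosome biogenesis had 2 of 24 members higher and 5 lower, with a median of -0.14. Bop1, a processing factor of ribosomal RNA, stood at 7, 7.05 and 7.32 against 8.48, 8.48 and 8.7, a difference of -1.43 (SE 0.25, limma adjusted p = 0.000514). Polr1c, a subunit of RNA polymerases I and III, fell by 0.94, and Ppan, another processing factor, fell by 0.84. Of 17 cytosolic ribosomal proteins 2 were lower, Rpl4 and Rpsa, and Rpsa lost its call without mouse 1, 3 or 19 (adjusted p up to 0.404). The Rpsa probe was detected on 0 of 3 Twist-line contralateral and 1 of 3 wild-type arrays, so its values were mostly below detection.

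Cell division genes were called at shares near the 8.58% of all genes called higher. Of 22 G1 and S phase genes 2 were higher, the cyclin Ccnd3 (0.54) and the replication helicase subunit Mcm2 (0.75), and Ccnd3 took the opposite sign, -0.075, when all probes of the gene were averaged. Mcm2 lost its call without mouse 1 or without mouse 17 (adjusted p up to 0.0607). Of 14 G2 and M phase genes 1 was higher. It was Prc1, which bundles the microtubules of the dividing cell, at 7.47, 7.64 and 6.93 against 5.32, 6.16 and 6.12, and its call was lost without any 1 of mice 1, 2, 17, 18 and 19 (adjusted p up to 0.136). In the same list 13 of 14 members had a positive difference, with a median of 0.49, against 0.001 over all genes. Only 8 of the 14 were detected on all 6 arrays, so some of these signs rest on levels near or below detection. In Twist1-deleted contralateral kidneys the median was 0.75, and in Snail-line contralateral kidneys, against the same wild-type kidneys, it was also 0.49.

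Early response and hormone-regulated genes were higher where they passed. Of 17 immediate early genes 3 were higher (Jund, Egr3 and Junb) and the median was 0.67, and of 18 glucocorticoid-responsive genes 4 were higher (Per1, Mt1, Map3k6 and Cebpb) with a median of 0.70, where 8.58% of all genes were higher. Junb, an AP-1 subunit, stood at 8.07, 7.67 and 6.64 against 6.05, 5.75 and 6.22, and kept its call only without mouse 3, while Jund lost it without mouse 18 alone (0.0695) and Egr3 kept it only without mouse 3. Per1, a clock gene that glucocorticoids also induce, stood at 10.24, 8.79 and 9.28 against 8.23, 7.35 and 7.59, a difference of 1.71, and its call was lost without mouse 1 or without mouse 18 (adjusted p up to 0.0913). Map3k6 lost its call without any 1 of the 6 arrays (adjusted p up to 0.176), Cebpb without any 1 but mouse 19 (0.155) and Mt1 without mouse 1, 18 or 19 (0.0694). In Twist1-deleted contralateral kidneys the medians of these lists were 0.28 and 0.4. In the clock list as a whole 1 of 16 was higher, Per1, and 1 was lower, Nr1d2, a repressor of the clock that lost its call without mouse 2, 17, 18 or 19 (adjusted p up to 0.141). The hour of tissue collection was not given in the sources used here.

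Metabolic lists were mixed, at shares to be read against the 8.58% of all genes called higher and 9.15% called lower, with Ppargc1a and Ogdh, a subunit of the oxoglutarate dehydrogenase complex (0.99), higher and Sdhd and Ndufb5, of respiratory complexes II and I, lower among 28 respiration genes. Ogdh kept its call without each array, and Ndufb5 lost it without any 1 of the 6 (adjusted p up to 0.115), Sdhd without any 1 but mouse 2. In fatty acid oxidation 2 of 26 were higher (Ppara and Slc25a20) and 2 lower (Hadh and Acaa1a), near those shares, and Hadh, a dehydrogenase of the pathway, fell by 1.53. Ppara lost its call without mouse 1, 17 or 18 (adjusted p up to 0.0823) and Slc25a20 without mouse 1, 2, 18 or 19 (0.1). Glycolysis and hypoxia genes had 2 of 22 higher, and cholesterol and fatty acid synthesis 3 of 20 higher, namely Acly, Srebf1 and Srebf2, of which Acly kept its call without each array and the other 2 lost it without any. In the antioxidant list 2 of 25 were higher and 3 lower, led by Hmox1 and by thioredoxin Txn1, which stood at 8.44, 7.92 and 8.24 against 9.19, 9.66 and 9.41. Of 18 renin-angiotensin genes 1 was higher, angiotensinogen Agt, at 8.42, 8.16 and 7.88 against 4.71, 4.48 and 7.26, where it was detected on 3 of 3 and on 1 of 3 arrays. The call was lost without mouse 18 (adjusted p = 0.0544), and Agt was detected on all 3 Snail-line contralateral arrays. Of 16 cell cycle inhibitors and p53 targets 2 were higher, Cdkn1b and Trp53inp1, and both lost their calls without mouse 2, 3 or 17 (adjusted p up to 0.0827 and 0.106).

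Immune and matrix genes were mostly not called. In 11 lists 0 of 159 measured members passed in limma's test, and 14 had an unadjusted p under 0.05, while 4009 of all 12866 genes did (31.2%). These lists were tubular injury, myofibroblast and pericyte, macrophage and myeloid, neutrophil, T and NK cell, B and plasma cell, chemokines and cytokines, sex-dimorphic kidney genes, endothelial, podocyte and adrenal gland. They were grouped because they had 0 calls, so their low share at unadjusted p is partly set by that choice. Many members were also dim. All 6 arrays detected 17 of the 19 endothelial genes, but 13 of the 21 injury genes and 2 of the 13 lymphocyte genes. Among the 3217 genes of lowest mean level 8.24% were called, against 17.7% of all genes. The 0 calls therefore do not show that these genes were unchanged. The injury marker Havcr1 stood at 10.71, 9.09 and 8.38 in Twist-line contralateral kidneys, against 9.91, 5.85 and 10.37 in wild-type kidneys, a spread within each group that was wider than the difference of 0.68 (adjusted p = 0.645). Of 28 matrix genes only Col8a1 was called, it was lower, and it lost its call without mouse 3 or 17 (adjusted p up to 0.108). Antigen presentation had 1 of 23 higher, the class I activator Nlrc5, and 2 lower, H2-K1 and Tapbp. The H2-K1 probe used was at -2.2, while a second was at 1.64 and did not pass. For Tapbp the probe used was at -1.03 and a second at -0.03. Nlrc5 kept its call without each array, while H2-K1 kept it only without mouse 17 and Tapbp only without mouse 2. Interferon-stimulated genes had 1 of 25 higher (Trim30a) and 1 lower (Bst2), and the complement and acute phase list had 1 of 19 lower, Cfb, each of which lost its call in at least 3 of these fits.

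Fat tissue genes were highest in mouse 2. Of 9 measured adipose genes 3 were higher, where 8.58% of all genes were: the hormone leptin (Lep), the lipase Lipe and the lipid droplet protein Plin4. All 9 differences were positive, with a median of 1.24, but only 2 of the 9 genes were detected on all 6 arrays. Lep was detected on 3 of 3 Twist-line contralateral and 0 of 3 wild-type arrays, and Lipe and Plin4 on 2 of 3 and 0 of 3. A second Lipe probe, detected on 0 of the 6 arrays, was at -0.31. Plin4 stood at 6.81, 9.24 and 4.5 in Twist-line contralateral kidneys, against 4.74, 4.69 and 4.55 in wild-type kidneys. The median of the list was 3.68 in mouse 2, against 0.49 and 0.16 in mice 1 and 3 and -0.24 to -0.2 in wild-type kidneys. Without mouse 2 all 3 of these genes lost their calls, and over all 6 fits without 1 array their adjusted p reached 0.122, 0.188 and 0.302. The summed linear level of the list was 16610 to 20550 in Twist-line contralateral kidneys and 8764 to 14360 in wild-type kidneys, and in Twist1-deleted contralateral kidneys its median was -0.19. The summed macrophage level was 2678 to 3917 against 3152 to 4267. For T and NK cell genes the sum was 5266 to 6629 against 3470 to 4454, without overlap. Of these 13 genes, however, 2 were detected on all 6 arrays and 6 on none, 0 were called, and the median difference was 0.1. For B and plasma cell genes the sum was 3364 to 4148 against 4286 to 5529, also without overlap. Of these 5 genes 3 were detected on all 6 arrays and 0 were called, with a median difference of 0. They include Xbp1, which is also in the heat shock and unfolded protein response list. Sums of linear levels rest mostly on the brightest members, so these ranges do not measure cell numbers. The sums of the neutrophil, endothelial, podocyte, blood and adrenal gland lists overlapped. The part of these cells in the other differences was not tested.

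**Figure D5:**
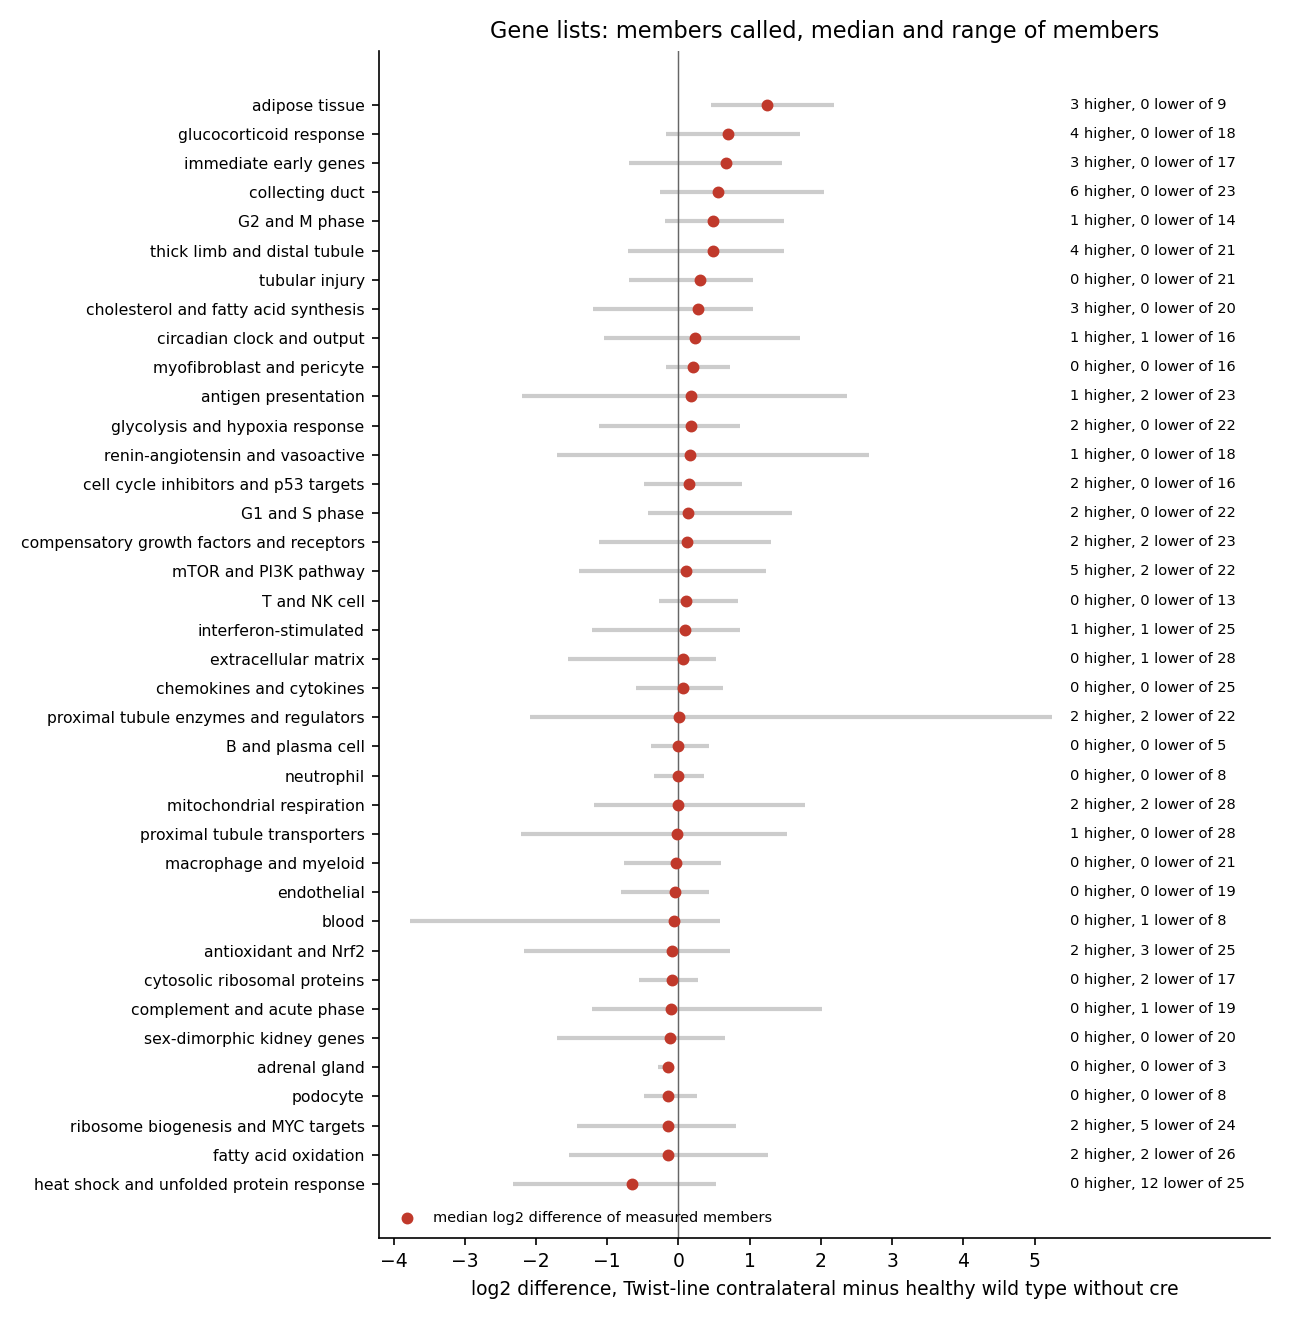
Each row is 1 of 38 gene lists, with the median log2 difference of its measured members as a point and the lowest to the highest member as a bar, for Twist-line contralateral minus healthy wild-type kidneys without cre. Members called higher and lower are given at the right, and heat shock and unfolded protein response genes, at a median of -0.65 with 12 of 25 lower, stand at the bottom.

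Of the genes of the floxed lines, Twist1 was detected on 0 of the 6 arrays and Snai1 on 1, of a wild-type kidney. Twist1, a transcription factor of mesenchymal cells, was at -0.17 (limma adjusted p = 0.612) and Snai1 at -0.17 (0.726), both on levels mostly below detection. Around Twist1 on chromosome 12, within 10 Mb in GRCm38.p6, 5 of 54 tested genes were called (9.26%), which is below the 17.7% of all genes. Farther along the chromosome, Dtd2 was off in every mouse of the floxed line. It was at 4.35 to 4.43 in mice 1 to 3, at 4.26 to 4.38 in mice 4, 6 and 7 and at 4.32 to 4.47 in mice 20 to 22, where Snail-line contralateral kidneys had 7.32 to 7.63, and all wild-type kidneys had 6.89 or above. It was detected on 0 arrays of the floxed line, so only the bound given above applies. In all, 116 genes were called in the same direction in the 3 comparisons of Twist-floxed mice with wild-type mice, of which both comparisons of Twist1-deleted kidneys share their wild-type kidneys. Of these, 6 lie on chromosome 12: Dtd2, Atp6v1d, Greb1, Hsp90aa1, Itgb1bp1 and Eipr1. Chromosome 12 holds 418 of the 12866 tested genes. In the comparison of healthy Twist1-deleted kidneys, the groups also differed in age and in Xist.

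Long and short genes differed in direction. The median genomic span was 35.1 kb for genes called higher, 16.7 kb for genes called lower and 21.8 kb for all tested genes with a span. Of the 2568 genes with the shortest span 4.05% were called higher and 10.7% lower, and of the 2568 with the longest 13.6% were called higher and 6.31% lower. The median difference in the longest genes was 0.09 in Twist-line and 0.08 in Twist1-deleted contralateral kidneys, and 0 in Snail-line ones. Other probes of the same genes were also read. Of 1600 other probes on 1044 called genes 69.1% had the same sign, 24.7% were called with it and 4.5% were called against it. For obstructed minus contralateral Twist-line kidneys 82.3% had the same sign and 49.2% were called with it.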

How the data were processed

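Whole-kidney RNA was measured on Illumina arrays in 37 kidneys of 25 mice. The authors deposited raw bead signals as linear intensity with a detection p-value for each probe, exported with GenomeStudio 5.0 per the submitters' processing notes. Their series matrix holds a linear function of the same signals, with values below 0 in 37 columns and medians of 6.4 to 16.1. Its scaling is not given in the sources used here. The array number limits precision.

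Intensities were background-corrected by normexp on detection p-values, quantile normalized and log2 transformed (neqc, offset 16, limma 3.58.1 in R 4.3.3). Of 45281 probes, 24544 had a detection p under 0.05 on at least 3 arrays, and of those with 1 gene symbol the probe of highest mean stood for each of 12866 genes. Symbols came from the platform annotation: 34885 probes had 1, 18 had several and 10378 had none. Group means were fitted over 12 groups with lmFit and eBayes, and the code was tested on simulated data. Replicates are separate mice per the labels. Kidneys of 1 mouse share a number, but the groups compared share none. Members and 38 lists were chosen with earlier results of these data known. Named genes were the largest called differences without overlap (12 higher, 12 lower), genes on in 1 group only (4 and 4), up to 4 called members of each list, the called genes nearest Twist1 and the 10 largest shared ones.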

Additional observations from a re-analysis of the deposited data

Results flagged for a closer look

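Ccng2, a cyclin that slows the cell cycle, was the gene whose difference was not alike in the comparisons that share no array. It stood at 7.86, 7.5 and 7.77 in Twist-line contralateral kidneys, against 5.29, 6.98 and 5.22 in wild-type kidneys without cre, a difference of 1.88. It stood at 7.19, 7.43 and 7.15 in Twist1-deleted contralateral kidneys, against 8.07, 7.57 and 8.36 in wild-type kidneys with cre, a difference of -0.74 (limma adjusted p = 0.112). The test of the difference between the differences gave 2.62 (SE 0.41, limma adjusted p = 0.00926 over all genes). The arrays of wild-type mice 17 and 19 were the low ones, and Snail-line contralateral kidneys were higher than the mean of the 3 wild-type kidneys without cre by 2.36.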

How the results depend on the processing

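The count of 2281 calls was 1928 to 2391 under quantile normalization without background correction, the quantile-normalized series matrix, offset 50, no filter, the mean of all probes, only the 6 arrays and wild-type kidneys with cre as the control. The authors' series matrix values without quantile normalization gave 3505 calls with 12.9% of them higher, against 48.4% of the main calls, and a median of all genes of -0.25, and heat shock, collecting duct and thick limb counts of 20, 3 and 0. Under these values the second comparison had 1960 calls and both had 1562 in the same direction. Array weights gave 3264 calls, 2560 in the second comparison and 1833 in both. Leaving out 1 array gave 1406 to 1709, 387 to 1644 and 270 to 1198. With mouse as a random replicate block (consensus correlation 0.233) the counts were 2331, 1223 and 841, and all 108 named called genes stayed called. No paired fit was possible because the groups compared share no mouse, and no slide block was run because no slide was identified in the files used here.

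Of those 108 genes, 54 kept their call without each of the 6 arrays in turn. Differences that turned sign were Aldoa at -0.094 under the series matrix, Dao at -2.635 with probes detected on all 6 arrays, Ccnd3 at -0.075, Slc25a20 at -0.13 and Srxn1 at -0.01 with probes averaged, Egr3 at -0.151 on the 6 arrays alone and Ccng2 at -0.294 against wild-type kidneys with cre. The cause was not tested.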
